A study of Mus musculus with 16 samples.

Results

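The genes of cholesterol and fatty acid synthesis were read in whole kidneys of mice with and without the Klotho mutation. The set was chosen by gene name and held 31 genes, all of them present among the 30277 genes of the deposited table. It comprised 18 enzymes of the sterol pathway, 6 regulators and 7 genes of fatty acid synthesis. Of these, 30 reached the level needed for a test in TPM. The exception was Acaca, whose long introns put it below that level on this scale. The 31 were chosen with earlier results of these data known.

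Cholesterol is built from acetyl-CoA through mevalonate, isopentenyl and farnesyl units, squalene and lanosterol, and fatty acids are built from the same acetyl-CoA by carboxylation and elongation. Both routes are switched on by the SREBP transcription factors. Scap carries these factors out of the endoplasmic reticulum when membrane sterol is low, and the Insig proteins hold them back when it is high. Sterol enzymes therefore often move together in liver and cultured cells. In the kidney the proximal tubule, which takes most of its energy from fatty acid oxidation, makes up much of the tissue.

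The 16 animals were C57Bl/6J mice, made congenic by backcrossing the recessive Kl mutation, in 4 groups of 4: male KlKl, male control, female KlKl and female control. KlKl mice were homozygous for the mutant allele and, per the series' description, in renal failure, at 46 to 59 days in males and 47 to 52 days in females. Control males were 46 to 48 days old, 1 and 2 heterozygous and 3 and 4 wild type, and control females were 47 to 57 days old and all heterozygous. The mutation is carried by every cell of the body, so the kidneys come from an animal affected in other organs too. Kidneys were perfused and frozen whole, and their polyadenylated RNA was sequenced, each library from its own animal.

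Kl itself, which encodes a co-receptor for the hormone FGF23, was lower in KlKl than in control kidneys by a log2 difference of -3.70 in males (adjusted p = 0.00544) and -4.00 in females (adjusted p = 0.00104). Recovered depth was 13025469 to 20102503 reads in males and 8207664 to 14501862 in females. 2 libraries stood apart. Female control 3, at 57 days, had the fewest reads and 15.2% of its TPM in ribosomal RNA, against at most 6.18% elsewhere. The summed proximal tubule markers were lowest of the 16 libraries in female control 3, at 622, and next lowest in male KlKl 3, at 718. Miox, Pck1 and Slc34a1 made up most of these sums, and the single markers did not all go 1 way. Miox was lowest of its group in both, at 323 and 211. Lrp2 was highest of the 16 libraries in female control 3, at 14.2, and Slc5a12 highest of its group in male KlKl 3, at 4.97. The sum over 12 such markers was 718 to 1382 scaled TPM in male KlKl, 1010 to 1410 in male control, 1071 to 1274 in female KlKl and 622 to 1346 in female control kidneys, and no marker was at 0 reads in every library of a group. In whole tissue, fewer cells of a type and less RNA per cell cannot be told apart.

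Levels below are scaled TPM, the deposited value divided by a factor that aligns the libraries on their median gene. The deposited TPM divides by the whole gene span, introns included, so levels of different members were compared only as reads per kilobase of exon, scaled to the depth of the library (RPM per kilobase). Marker sums add scaled TPM of different genes, so genes with a long span count for less in them. On that scale Hmgcs1, which makes the substrate of the rate-limiting reductase, was the highest member of male KlKl, male control and female KlKl kidneys. It stood at 104 ± 34, 101 ± 13 and 72.6 ± 3.5 there (SD, n = 4 each). The desaturase gene Scd1 stood at 70.2 ± 40 in male KlKl and 40.3 ± 8.5 in male control kidneys, and at 41.7 ± 6.9 in female KlKl and 84.2 ± 61 in female control kidneys. Cyp51, the lanosterol demethylase, lay between 48.8 and 72.3 in all 4 group means. Acaca, the acetyl-CoA carboxylase, was the lowest, with group means of 0.73 to 0.97. Hmgcs1, Scd1 and Cyp51 were the 3 highest members in every group, in differing order.

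The 200 bases before the annotated start of Idi1, Hsd17b7 and Hmgcs1 are given as examples from the sterol genes. They are printed 5′ to 3′ on the gene's strand, from RefSeq on build GRCm38.p6. Capitals mark the CCAAT box, which reads ATTGG where it lies on the other strand, and in Hmgcs1 also the sterol regulatory element.
Idi1, chr13:8885406-8885605, plus strand: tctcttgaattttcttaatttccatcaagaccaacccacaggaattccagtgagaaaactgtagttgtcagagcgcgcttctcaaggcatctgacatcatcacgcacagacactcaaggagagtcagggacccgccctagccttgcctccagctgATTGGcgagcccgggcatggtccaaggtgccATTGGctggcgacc
Hsd17b7, chr1:169969206-169969405, minus strand: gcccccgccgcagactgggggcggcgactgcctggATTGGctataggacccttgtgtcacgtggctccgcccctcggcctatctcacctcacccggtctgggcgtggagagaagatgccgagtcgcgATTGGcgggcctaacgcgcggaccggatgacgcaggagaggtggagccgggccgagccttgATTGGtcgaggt
Hmgcs1, chr13:119690151-119690350, plus strand: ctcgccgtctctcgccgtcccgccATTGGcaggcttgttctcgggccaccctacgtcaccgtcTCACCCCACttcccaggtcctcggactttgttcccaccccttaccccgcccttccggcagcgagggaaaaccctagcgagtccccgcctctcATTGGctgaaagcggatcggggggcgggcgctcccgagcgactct

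Promoter windows, from 250 bases before to 50 after the start, were found for 25 of the 31 members, and motifs were searched on both strands. Sqle, Fdps, Fdft1, Scd1, Scd2 and Stard4 had no window. The CCAAT box, bound by the factor NF-Y, which is known to work with SREBP, was in 20 of 25 members (80%), against 41.1% of 27025 genes. The sterol regulatory element TCACNCCAC was in 1 of 25 members, Hmgcs1 (4%), against 1.44% of genes. The form TCACNTGA was in 1 of 25, Insig2 (4%), against 4.78% of genes. A match describes letters in these windows and does not show a bound site. Other forms of these elements, and sites outside the windows, were not searched, so the lack of a match does not show that a site is absent. A CCAAT box stood in each of the printed stretches, with the nearest to the start at 14 to 10 bases before it in Idi1 and 12 to 8 bases before it in Hsd17b7.

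The comparison of KlKl with control kidneys asked how renal failure in Klotho deficiency changes these genes. Of the 30 tested members, 0 passed an adjusted p of 0.05 in males (0.00547% of all genes tested passed), 0 in females (0.0109%), 0 in the mean of both sexes (0.0219%) and 0 for the difference of the KlKl effect between the sexes (0%). Members with an unadjusted p under 0.05 by limma on TPM numbered 3 in males, 1 in females, 5 in the mean of both sexes and 1 for the difference, and 4.53%, 3.97%, 5.44% and 2.85% of the 18273 genes tested did so. By limma voom on recovered reads, which also tested Acaca, 0 of 31 passed in each of these comparisons, where 0.0344%, 0.0115%, 0.0229% and 0% of 17435 genes passed. By voom 5, 2, 6 and 3 members had an unadjusted p under 0.05, against 6.15%, 2.58%, 5.98% and 2.41% of genes. The members are therefore described below by their values, and no change of a single member with genotype is called.

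Across the sterol enzymes the differences leaned to the KlKl side being lower. In males 15 of 18 sterol members had a negative log2 difference, with a median of -0.22, against a median of -0.001 over all genes, of which 50.2% were negative. In females it was also 15 of 18, with a median of -0.14, against 0.009 over all genes, of which 47.8% were negative. In the mean of both sexes 15 of 18 were negative, with a median of -0.17. The lean depends on the scaling: on the deposited scale the all-gene median moved to 0.23 in males and 0.14 in females, and the sterol median turned to 0.03 in males and 0.02 in females. With libraries scaled on nuclear genes that are not pseudogenes it was -0.17 in males and turned to 0.08 in females, where the all-gene median was 0.18. Relative to the all-gene median it was -0.21, -0.20 and -0.21 in males and -0.15, -0.12 and -0.11 in females on the median-ratio, deposited and nuclear scales. These enzymes share a pathway and its regulators, so they are not independent observations.

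The sterol score, the mean over the 18 enzymes of each library's log2 deviation from the gene's mean over 16 libraries, shows how the libraries made up this lean. It was 0.16, 0.03, -0.34 and -0.02 in male KlKl 1 to 4, against 0.19, 0.23, 0.15 and 0.27 in male control 1 to 4. The male groups overlapped only through male KlKl 1, and male KlKl 3 held the lowest value of its group for 11 of the 18 genes. In female KlKl 1 to 4 the score was -0.05, -0.06, -0.22 and -0.26, against 0.25, -0.02, -0.12 and -0.17 in female control 1 to 4. Female control 1 alone stood well above the other females, and held the highest value of its group for 12 of the 18 genes. Without it the female median over all tested members was -0.081, the weakest of the runs with 1 library left out. Without male KlKl 3 and female control 3, 14 of 18 sterol members were negative in males, with a median of -0.14, and 15 of 18 in females, with a median of -0.17.

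**Figure D1:**
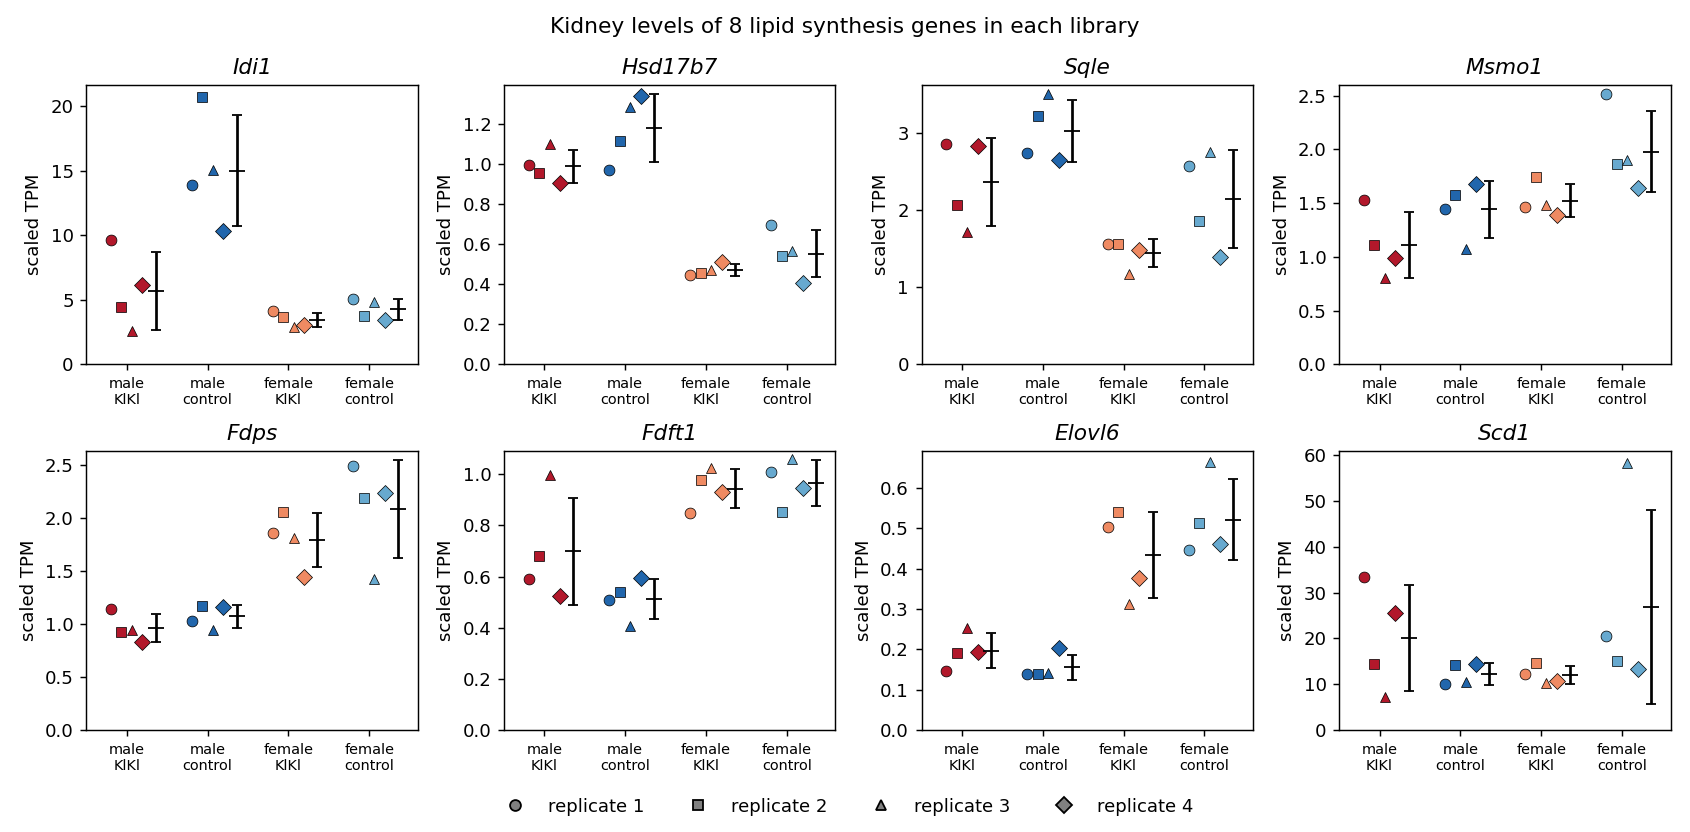
Scaled TPM of selected members in each of the 16 libraries by group, male KlKl, male control, female KlKl and female control from left to right, with group mean and SD. Idi1 separates male KlKl, at 2.56 to 9.60, from male control kidneys, at 10.3 to 20.7, and single libraries set the top values of Scd1.

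Idi1, the isomerase that makes dimethylallyl diphosphate, the priming unit of isoprenoid chains, had the largest KlKl difference of any member in males. On build mm39 it spans bases 8935537 to 8942488 of chromosome 13, plus strand (ENSMUSG00000058258). Its scaled TPM was 9.60, 4.41, 2.56 and 6.12 in male KlKl 1 to 4, against 13.9, 20.7, 15.1 and 10.3 in male control 1 to 4. All 4 KlKl males lay below all 4 control males. The log2 difference was -1.498 (SE 0.32, 95% interval -2.18 to -0.82), and it did not pass (adjusted p = 0.36; 0.0932 to 0.934 over the alternatives). By limma voom it was -1.53 (adjusted p = 0.119), and the mean of both sexes by limma on TPM was -0.90 (SE 0.22, adjusted p = 0.568). The value was -1.37 within the library name series CFK and -1.63 within series CFdk, and -1.18 without male KlKl 3.

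In females Idi1 stood at 4.10, 3.69, 2.90 and 3.02 in KlKl 1 to 4, against 5.06, 3.71, 4.79 and 3.44 in control 1 to 4. These groups overlapped, and both lay below every control male. The female log2 difference was -0.30 (95% interval -0.98 to 0.38). The KlKl effect in males minus that in females was -1.20 (SE 0.45), which did not pass (adjusted p = 0.999; 0.33 to 1.00 over the alternatives). Group means of Idi1 on the exon scale were 14.4 ± 7.5 in male KlKl, 35.2 ± 9.5 in male control, 8.59 ± 1.5 in female KlKl and 9.90 ± 1.9 in female control kidneys (SD, n = 4 each). Control males stood high for this gene, and male KlKl 3 lay below every female.

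Scap, the escort protein of SREBP, was the other member whose male groups did not overlap, at 0.977 to 1.05 in male KlKl and 1.07 to 1.21 in male control kidneys. Scap lies outside the rule for named genes and was chosen after its values were seen. Idi1 and Scap were thus 2 of 30 members with the KlKl males lower and apart, against 2.01% of all genes, and 0 members had KlKl males higher and apart, against 2.02%. None of the members had non-overlapping female groups, against 1% of genes lower and 0.897% higher in KlKl.

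Among enzymes between squalene and cholesterol, Sqle, the squalene epoxidase and a control point of the route, had scaled TPM of 2.86, 2.07, 1.71 and 2.84 in male KlKl 1 to 4, against 2.75, 3.22, 3.51 and 2.65 in male control 1 to 4. Female values were 1.56, 1.56, 1.18 and 1.48 in KlKl 1 to 4, against 2.58, 1.86, 2.75 and 1.39 in control 1 to 4. The groups overlapped in both sexes, through 2 KlKl males and through female control 4. The log2 difference was -0.43 in the mean of both sexes (SE 0.15, adjusted p = 0.792; 0.257 to 1.00 over the alternatives) and -0.50 in females (SE 0.21, adjusted p = 0.966; 0.258 to 1.00).

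Msmo1, a methylsterol monooxygenase, was 1.53, 1.11, 0.801 and 0.990 in male KlKl 1 to 4, against 1.45, 1.57, 1.07 and 1.68 in male control 1 to 4. The females had 1.47, 1.75, 1.48 and 1.39 in KlKl 1 to 4, against 2.51, 1.86, 1.90 and 1.65 in control 1 to 4. The groups overlapped in both sexes. The mean log2 difference was -0.36 (SE 0.13, adjusted p = 0.82; 0.258 to 1.00 over the alternatives). Hsd17b7, a sterol ketoreductase, and Acat2, the cytosolic thiolase that opens the route, had mean differences of -0.20 each (adjusted p = 0.899 for both). That of Acat2 turned to 0.01 on the deposited scale.

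Cyp51 showed how much a single animal can carry. It was 10.3, 8.43, 2.09 and 8.03 in male KlKl 1 to 4, against 11.3, 9.98, 10.1 and 10.6 in male control 1 to 4. Among females the values were 11.3, 10.3, 5.40 and 6.01 in KlKl 1 to 4, against 12.1, 10.2, 18.6 and 5.59 in control 1 to 4. The low male value was that of male KlKl 3 and the high female value that of female control 3. The log2 difference was -0.75 in males (SE 0.45, adjusted p = 1.00) and -0.24 without male KlKl 3, and it was -0.44 in females (SE 0.45, adjusted p = 0.966), -0.17 without female control 3, -0.26 without female KlKl 3 and -0.74 without female control 4. The mean of both sexes was -0.59 (SE 0.32, adjusted p = 0.916), and -0.34 without male KlKl 3.

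Male KlKl 3 also stood low for Hmgcs1, at 9.45, against 24.1, 24.8 and 25.7 in the other KlKl males and 19.7 to 24.2 in male control kidneys. Hmgcs1 was 14.3 to 15.3 in female KlKl and 13.7 to 17.04 in female control kidneys. Apart from that library, its groups lay close together within each sex. The same library was lowest for Nsdhl, a sterol dehydrogenase encoded on the X chromosome, at 0.553, and for Sc5d, the lathosterol desaturase, at 1.40, and highest for Pmvk, the phosphomevalonate kinase, at 0.988.

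The remaining sterol members are given by their ranges. Lss, which closes the ring to lanosterol, was 0.535 to 0.576 in male KlKl and 0.525 to 0.630 in male control kidneys, and 0.463 to 0.493 in female KlKl and 0.250 to 0.670 in female control kidneys. Tm7sf2, a sterol reductase, was 1.33 to 1.75 in male KlKl and 1.65 to 1.98 in male control kidneys, and 1.68 to 1.95 in female KlKl and 1.37 to 2.34 in female control kidneys. Dhcr7 was 0.384 to 0.542 in male KlKl and 0.464 to 0.649 in male control kidneys, and 0.356 to 0.406 in female KlKl and 0.102 to 0.571 in female control kidneys. The low ends of Lss, Tm7sf2 and Dhcr7 in control females were all female control 3, and the groups of these genes overlapped in both sexes. Ebp was 5.22 to 7.36 in male KlKl and 5.86 to 7.85 in male control kidneys, and 5.92 to 10.3 in female KlKl and 8.04 to 11.01 in female control kidneys. Mvk was 0.467 to 0.579 in male KlKl and 0.403 to 0.602 in male control kidneys, and 0.345 to 0.429 in female KlKl and 0.282 to 0.469 in female control kidneys. Pmvk was 0.621 to 0.667 in female KlKl and 0.544 to 0.689 in female control kidneys, Nsdhl 0.473 to 0.746 in female KlKl and 0.446 to 1.16 in female control kidneys, and Sc5d 1.78 to 2.18 in female KlKl and 1.77 to 2.50 in female control kidneys.

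Fdft1, the squalene synthase, and Mvd, the mevalonate diphosphate decarboxylase, were the remaining members with an unadjusted p under 0.05 in males. Fdft1 was 0.591, 0.680, 0.997 and 0.524 in male KlKl 1 to 4, against 0.507, 0.541, 0.406 and 0.592 in male control 1 to 4, a log2 difference of 0.36 (SE 0.15, adjusted p = 1.00). It overlaps Ctsb on the opposite strand, and the strand setting of the counting is not given in the sources used here. Mvd was 3.26, 3.92, 1.86 and 2.82 in male KlKl 1 to 4, against 4.05, 3.61, 3.79 and 3.81 in male control 1 to 4, a difference of -0.40 (SE 0.19, adjusted p = 1.00). Without male KlKl 3 the differences were 0.19 for Fdft1 and -0.20 for Mvd. Both pairs of groups overlapped.

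Marker sums of tubule injury, macrophages and the thick limb stand beside these values, and only the injury and thick limb sums of males and the macrophage sums of females kept KlKl above control without overlap. The summed tubule injury list (9 genes, mostly Spp1) was 141 to 226 scaled TPM in male KlKl and 91.5 to 134 in male control kidneys, and 310 to 381 in female KlKl and 273 to 320 in female control kidneys. The macrophage list (8 genes) was 23.8 to 42.9 in male KlKl and 20.7 to 32.0 in male control kidneys, and 34.6 to 40.9 in female KlKl and 26.0 to 30.6 in female control kidneys. The thick ascending limb list (6 genes, mostly Umod) was 162 to 190 in male KlKl and 139 to 158 in male control kidneys. In females it was 133 to 161 in KlKl and 134 to 170 in control kidneys. None of these lists had a gene at 0 reads throughout a group. Their part in the sterol values was not tested.

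The regulators showed no common direction with genotype. In males 4 of 6 had a negative difference, with a median of -0.07, and in females 3 of 6, with a median of -0.06. Srebf1, which encodes the SREBP that drives fatty acid synthesis, was 0.923 to 1.65 in male KlKl and 1.02 to 1.15 in male control kidneys, and 0.847 to 1.25 in female KlKl and 0.635 to 1.25 in female control kidneys. Srebf2, which encodes the SREBP of the sterol route, was 0.930 to 1.14 in male KlKl and 1.06 to 1.18 in male control kidneys. In females Srebf2 was 0.748 to 0.949 in KlKl and 0.557 to 0.979 in control kidneys. The groups overlapped in both sexes for both genes.

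Insig1, an SREBP target and the inducible retention protein, was 3.54 to 5.73 in male KlKl and 4.12 to 6.43 in male control kidneys, and 3.22 to 5.21 in female KlKl and 3.94 to 6.39 in female control kidneys. The groups overlapped in both sexes. Insig2, the constitutive form, was 1.09 to 1.29 in male KlKl and 1.16 to 1.32 in male control kidneys, and 0.924 to 1.07 in female KlKl and 0.849 to 1.09 in female control kidneys. Stard4, a sterol carrier, was 3.72 to 4.75 in male KlKl and 3.35 to 4.54 in male control kidneys, and 2.86 to 3.87 in female KlKl and 2.74 to 4.63 in female control kidneys.

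**Figure D2:**
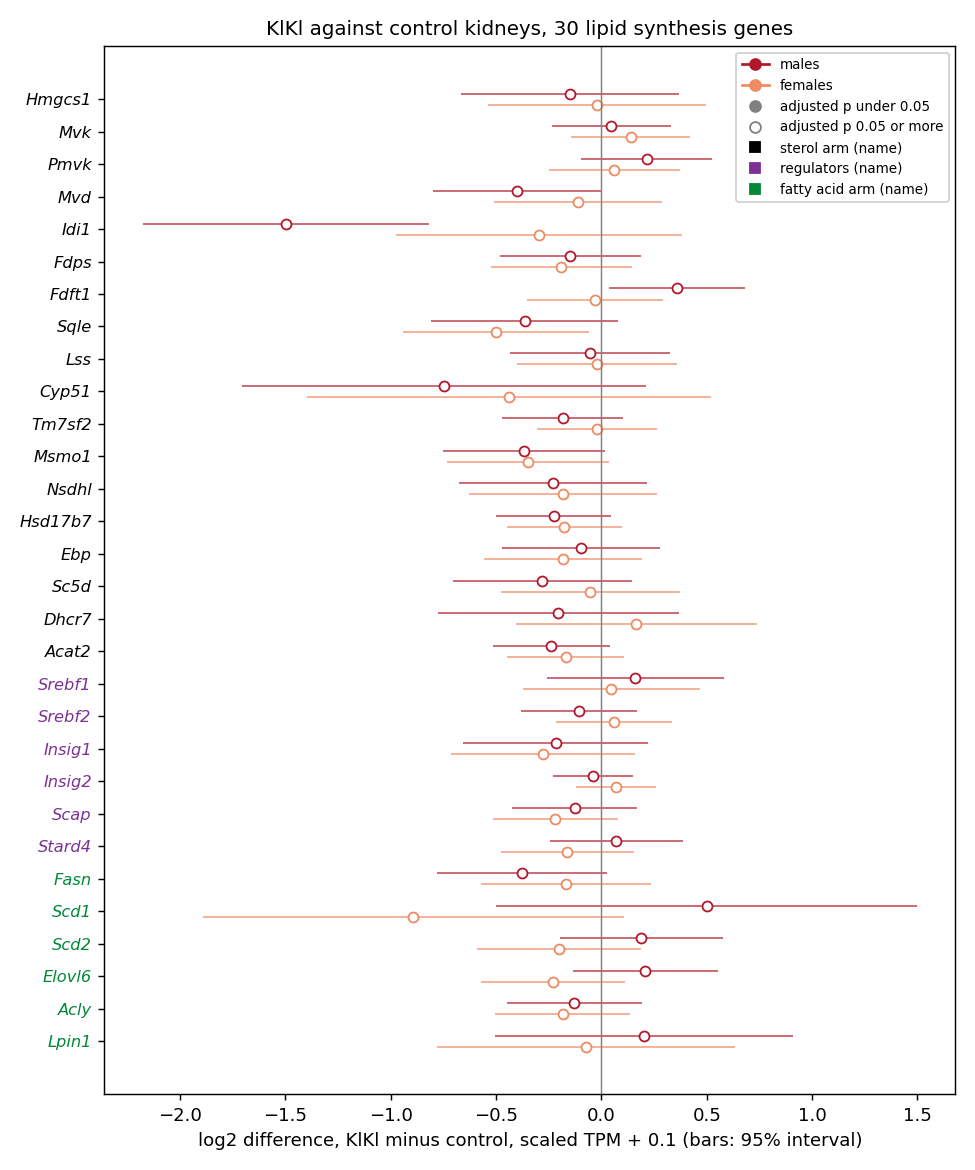
Log2 difference of KlKl minus control for the 30 tested members, in males and in females, with 95% intervals from limma. Most sterol members lie left of 0 in both sexes, the intervals of nearly all include 0, and Idi1 in males has the largest difference, at -1.498.

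The fatty acid members leaned in opposite ways in the sexes, without a call. In males 4 of 6 had a positive difference, with a median of 0.20, and in females all 6 tested had a negative one, with a median of -0.19. On the nuclear scale the female median was 0.02, with 2 of 6 negative, and on the deposited scale it was -0.03, with 5 of 6 negative. Without female control 3 and male KlKl 3, 5 of 6 were negative in females, with a median of -0.17.

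Scd1, which puts the double bond into stearoyl-CoA and is a classic SREBP and LXR target, had the largest difference of the 6 in each sex. On build mm39 it spans bases 44382894 to 44396319 of chromosome 19, minus strand. It was 33.4, 14.4, 7.17 and 25.4 in male KlKl 1 to 4, against 10.1, 14.3, 10.4 and 14.5 in male control 1 to 4. In females it was 12.3, 14.7, 10.3 and 10.8 in KlKl 1 to 4, against 20.5, 15.2, 58.2 and 13.4 in control 1 to 4. KlKl males 1 and 4 and female control 3 were high, and the groups overlapped in both sexes.

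The log2 difference of Scd1 was 0.50 in males (SE 0.47, adjusted p = 1.00) and -0.89 in females (SE 0.47, adjusted p = 0.966). Without female control 3 the female value was -0.43. Without male KlKl 1 the male value was 0.18, without male KlKl 4 it was 0.31, and without male KlKl 3 it was 0.92. The KlKl effect in males minus that in females was 1.39 (SE 0.66), which did not pass (adjusted p = 0.999; 0.406 to 1.00 over the alternatives), and was 0.93 without female control 3. Its neighbour and relative Scd2 was 4.88 to 5.83 in male KlKl and 3.61 to 5.93 in male control kidneys, and 3.74 to 7.29 in female KlKl and 5.05 to 6.76 in female control kidneys. How the counting shared reads between these similar desaturase genes is not given in the sources used here.

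Markers of fat, a tissue rich in these desaturases, varied between animals. Adipoq, an adipocyte hormone, was 0.0256 to 0.221 scaled TPM in male KlKl, 0.0108 to 0.355 in male control, 0.00616 to 0.171 in female KlKl and 0.00679 to 0.189 in female control kidneys. Cfd, which adipocytes secrete, was 0.787 to 6.03 in male KlKl, 0.484 to 13.1 in male control, 0.589 to 9.01 in female KlKl and 0.606 to 9.22 in female control kidneys. Fabp4, which endothelial cells also express, was 5.76 to 16.8 in male KlKl, 8.68 to 17.6 in male control, 14.2 to 24.5 in female KlKl and 16.03 to 26.6 in female control kidneys. The sum over the 9 white adipocyte genes was 233 to 464 in male KlKl, 118 to 275 in male control, 132 to 233 in female KlKl and 103 to 160 in female control kidneys, and Pck1, which proximal tubules also express, made up most of it. Brown adipocyte genes summed to at most 1.38, and adrenal cortex genes to at most 1.04, with Cyp11b2 at 0 reads in every group. Their part in the values of Scd1 was not tested.

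Fasn, the fatty acid synthase, was 2.66, 3.13, 1.59 and 2.18 in male KlKl 1 to 4, against 2.75, 3.20, 3.00 and 3.28 in male control 1 to 4. In females it was 1.37 to 1.85 in KlKl and 1.32 to 2.24 in control kidneys. The groups overlapped in both sexes. Acly, which makes cytosolic acetyl-CoA from citrate, was 1.33 to 1.75 in male KlKl and 1.65 to 1.78 in male control kidneys, and 0.816 to 1.12 in female KlKl and 0.875 to 1.51 in female control kidneys. Elovl6, the elongase of palmitate, differed by 0.21 in males and -0.23 in females, and the difference between the sexes, 0.44 (SE 0.23), did not pass (adjusted p = 0.999). Acaca, tested on reads alone, differed by -0.22 in males and 0.01 in females (limma voom, adjusted p = 0.864 and 1.00).

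Lpin1, the phosphatidate phosphatase that also serves as a coregulator, was 0.506 to 0.754 in male KlKl and 0.446 to 0.702 in male control kidneys. In females it was 0.259 to 0.564 in KlKl and 0.213 to 1.02 in control kidneys, the highest being female control 3. The groups overlapped in both sexes. The fatty acid score of female control 3, 0.58, was the highest of the 16 libraries, against -0.11 to 0.08 in the other female controls.

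**Figure D3:**
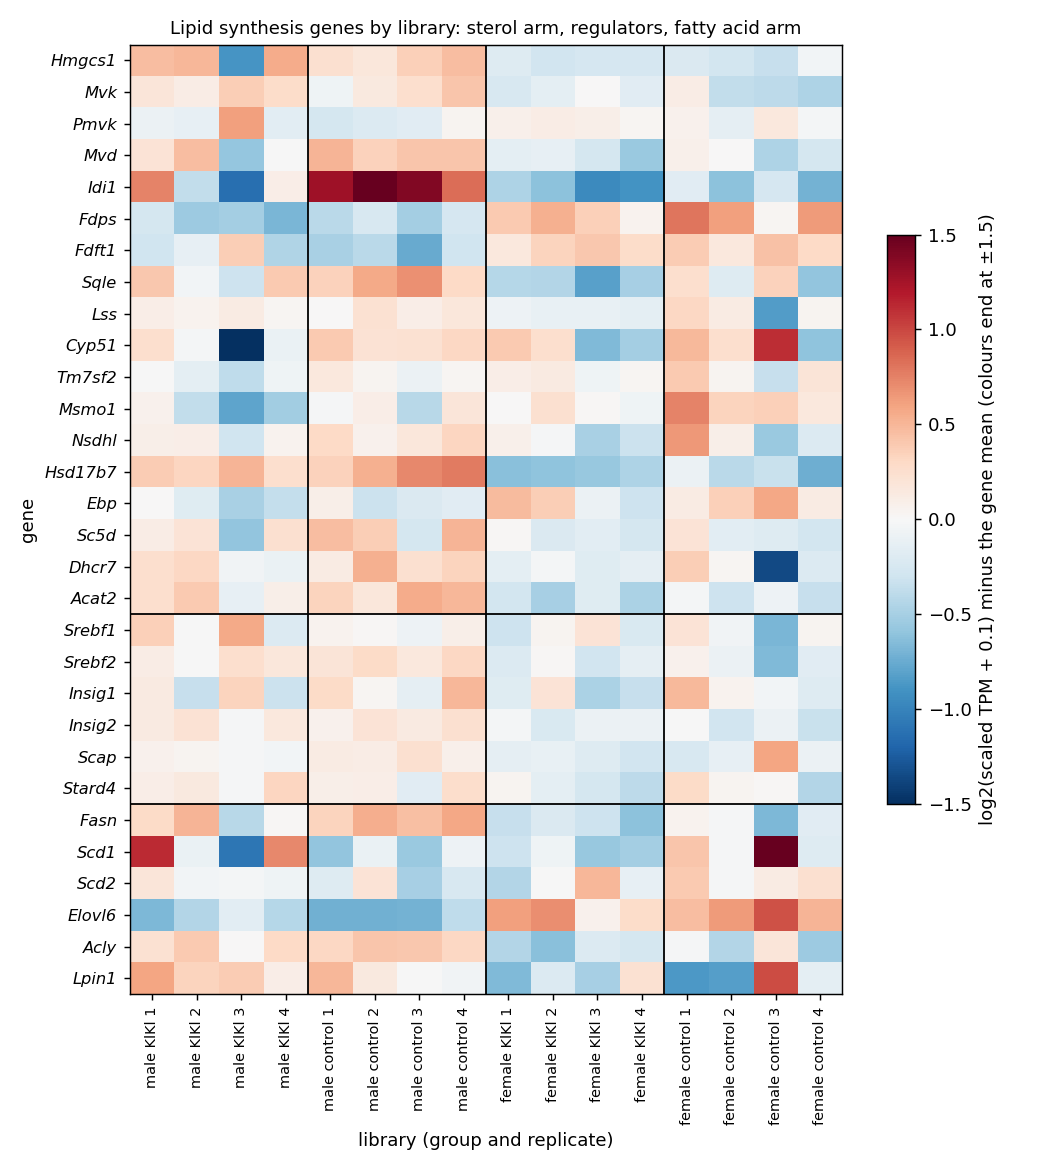
Log2 deviation of each tested member from its mean over the 16 libraries, members in rows by arm and libraries in columns, male KlKl, male control, female KlKl and female control from left to right. Male KlKl 3 stands out in the sterol rows, with a sterol score of -0.34, and female control 3 in the fatty acid rows, with a score of 0.58.

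Sex divided these genes far more than genotype. Between male and female control kidneys 12 of 30 members passed (40%), 9 higher and 3 lower in males, and 34.1% of all genes passed, 18.6% higher and 15.5% lower. Between male and female KlKl kidneys 6 of 30 passed (20%), 4 higher and 2 lower in males, and 22.5% of all genes passed, 12.4% higher and 10.2% lower. Groups without overlap, males higher and males lower, numbered 9 and 4 members in controls, against 18.8% and 15% of genes, and 8 and 2 members in KlKl, against 16% and 13.5%. The shares of members are near those of all genes. Without male KlKl 3 the KlKl count was 12, where 24.4% of all genes passed, and without female control 3 it was also 12, where 31.2% passed. All groups share an estimate of the spread. Leaving out a library that is not in a comparison therefore keeps its differences and changes only their SE and adjusted p. Female control 3 is not in the KlKl comparison. The same holds for calls below that change without a library of the other genotype. 5 members passed in both comparisons: Hsd17b7, Acat2 and Acly, which were higher in males, and Fdps and Elovl6, which were lower. On the deposited scale, which moved the all-gene median to 0.28 in controls and 0.37 in KlKl, 14 members were higher and 1 lower in controls, and 17 higher and 1 lower in KlKl. On the nuclear scale, with all-gene medians of 0.24 and 0.11, it was 13 higher and 1 lower in controls and 5 higher and 1 lower in KlKl. Of all genes, 32.5% were called higher and 5.52% lower in controls on the deposited scale, and 37.4% higher and 2.2% lower in KlKl. On the nuclear scale these shares were 24.4% and 5.76% in controls and 10.7% and 4.62% in KlKl.

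Within the library name series CFK, 7 of 30 passed in controls (15.4% of genes) and 10 in KlKl (23.3%), and within series CFdk 3 passed in controls (13.2%) and 0 in KlKl (0.372%). The 12 members called in controls and the 6 called in KlKl kept their direction in both series and in each of the 33 alternatives that tested them. These runs reuse the libraries by which the members were called, so a kept direction is not separate support. Of the 12 members, 2 were called in every alternative, and of the 6, 0 were. Female libraries were shallower than male ones, and whether the sexes were prepared or sequenced together is not given in the sources used here. Sex and such differences cannot be told apart.

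Hsd17b7 held its sex difference through every alternative in controls. On build mm39 it spans bases 169777104 to 169796811 of chromosome 1, minus strand (ENSMUSG00000026675). It was 0.973, 1.12, 1.29 and 1.34 in male control 1 to 4, against 0.694, 0.540, 0.569 and 0.408 in female control 1 to 4. In KlKl kidneys it was 0.996, 0.955, 1.10 and 0.908 in males 1 to 4, against 0.447, 0.455, 0.470 and 0.513 in females 1 to 4. Neither pair of groups overlapped. It was higher in males by 0.98 on the log2 scale in controls (SE 0.13, adjusted p = 0.000127) and by 0.93 in KlKl (SE 0.13, adjusted p = 0.000445). The promoter printed above for this gene holds 3 CCAAT boxes.

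Idi1 was higher in male than in female control kidneys by 1.77 on the log2 scale (SE 0.32, adjusted p = 0.000981), the largest sex difference of any member by limma on TPM. By limma voom it was 1.81, and that of Elovl6 was close in size, at -1.73. Its control groups, 10.3 to 20.7 in males and 3.44 to 5.06 in females, did not overlap. In KlKl it was 2.56 to 9.60 in males and 2.90 to 4.10 in females, which overlapped, and the difference of 0.57 did not pass (adjusted p = 0.208). Whether the sex difference itself changed with genotype is the same test as above (adjusted p = 0.999).

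At the entry to the route, Acat2 was 4.05, 3.61, 4.75 and 4.55 in male control 1 to 4, against 3.11, 2.56, 3.02 and 2.49 in female control 1 to 4. In KlKl kidneys it was 3.83, 4.23, 2.92 and 3.40 in males 1 to 4, against 2.62, 2.22, 2.81 and 2.26 in females 1 to 4. Males lay above females without overlap in both genotypes. The difference was 0.58 in controls (SE 0.13, adjusted p = 0.00376) and 0.51 in KlKl (SE 0.13, adjusted p = 0.0128). Mvk, the mevalonate kinase, and Mvd were higher in control males by 0.46 (SE 0.13, adjusted p = 0.0146) and 0.58 (SE 0.19, adjusted p = 0.0264), with values in KlKl of 0.37 (adjusted p = 0.0555) and 0.30 (adjusted p = 0.27) that did not pass. Sqle was higher in KlKl males by 0.65 (SE 0.21, adjusted p = 0.0356), while its value in controls, 0.52, did not pass (adjusted p = 0.0664). These calls rest on few libraries: that of Mvd was lost without male control 1, 3 or 4 or female control 3 or 4 (down to 0.48), and that of Mvk without male control 4 (0.39). The call of Sqle in KlKl was lost without any 1 of the 8 KlKl libraries other than male KlKl 3 (down to 0.56), and its value in controls passed without female control 1 or 3 and was 0.34 without female control 4. The KlKl value of Mvk passed without male control 1, female control 1 or female control 3. These are not in that comparison and bear only on its SE and adjusted p.

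Fdps and Fdft1 lay on the other side. Fdps, the farnesyl diphosphate synthase, was 1.02, 1.17, 0.944 and 1.16 in male control 1 to 4, against 2.49, 2.19, 1.42 and 2.23 in female control 1 to 4. In KlKl kidneys it was 1.14, 0.923, 0.947 and 0.830 in males 1 to 4, against 1.85, 2.06, 1.81 and 1.45 in females 1 to 4. Every male lay below every female of its genotype. It was lower in males by a log2 difference of -0.87 in controls (SE 0.16, adjusted p = 0.000969) and -0.83 in KlKl (SE 0.16, adjusted p = 0.00271).

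Fdft1 was lower in control males, at 0.406 to 0.592, against 0.850 to 1.06 in control females, a log2 difference of -0.81 (SE 0.15, adjusted p = 0.0013). In KlKl its groups overlapped, at 0.524 to 0.997 in males and 0.848 to 1.02 in females, and the difference of -0.42 did not pass (adjusted p = 0.0606). Male KlKl 3 held the high male value, and without it the difference was -0.58 and passed. Ebp, the sterol isomerase, and Msmo1 had differences of -0.45 (adjusted p = 0.0589) and -0.43 (adjusted p = 0.076) in controls. Those of Msmo1 and Ebp in KlKl were -0.45 (adjusted p = 0.0831) and -0.37 (adjusted p = 0.143). Hmgcs1, whose control groups of 19.7 to 24.2 in males and 13.7 to 17.04 in females did not overlap, had a difference of 0.53 (SE 0.24) that did not pass (adjusted p = 0.105) but did without male KlKl 3. Dhcr7, the last reductase of the route, had 0.60 (SE 0.27, adjusted p = 0.0995), which was 0.24 without female control 3 and 0.82, and passed, without female control 1. The calls of Ebp and Msmo1 in controls were gained without single libraries, male control 1, female KlKl 1 or female KlKl 4 for Ebp and male KlKl 1 for Msmo1, and that of Msmo1 in KlKl without male KlKl 1. For Hmgcs1, Ebp and Msmo1 in controls, the KlKl libraries bear only on the SE and adjusted p. Acat2, Mvk, Mvd and Idi1, before the farnesyl step, were thus called higher in control males. Fdps, at that step, and Fdft1, after it, were called lower. Hsd17b7, later in the route, was called higher, by 0.98, so the calls did not divide at the farnesyl step.

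Among regulators, Srebf2 was higher in control males, at 1.06 to 1.18, against 0.557 to 0.979 in control females, by 0.45 (SE 0.13, adjusted p = 0.0152). Insig2 was higher in control males, at 1.16 to 1.32, against 0.849 to 1.09 in control females, by 0.34 (SE 0.09, adjusted p = 0.00911). In KlKl their differences were 0.29 (adjusted p = 0.124) and 0.23 (adjusted p = 0.0716), and Stard4 had 0.33 (adjusted p = 0.122). The KlKl value of Srebf2 passed without female control 3, and that of Insig2 without female control 3 or male KlKl 3. Female control 3 is not in that comparison and bears only on its SE and adjusted p. All 6 regulators had a positive value in both genotypes, but those of Srebf1, Insig1, Scap and Stard4 did not pass in either.

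**Figure D4:**
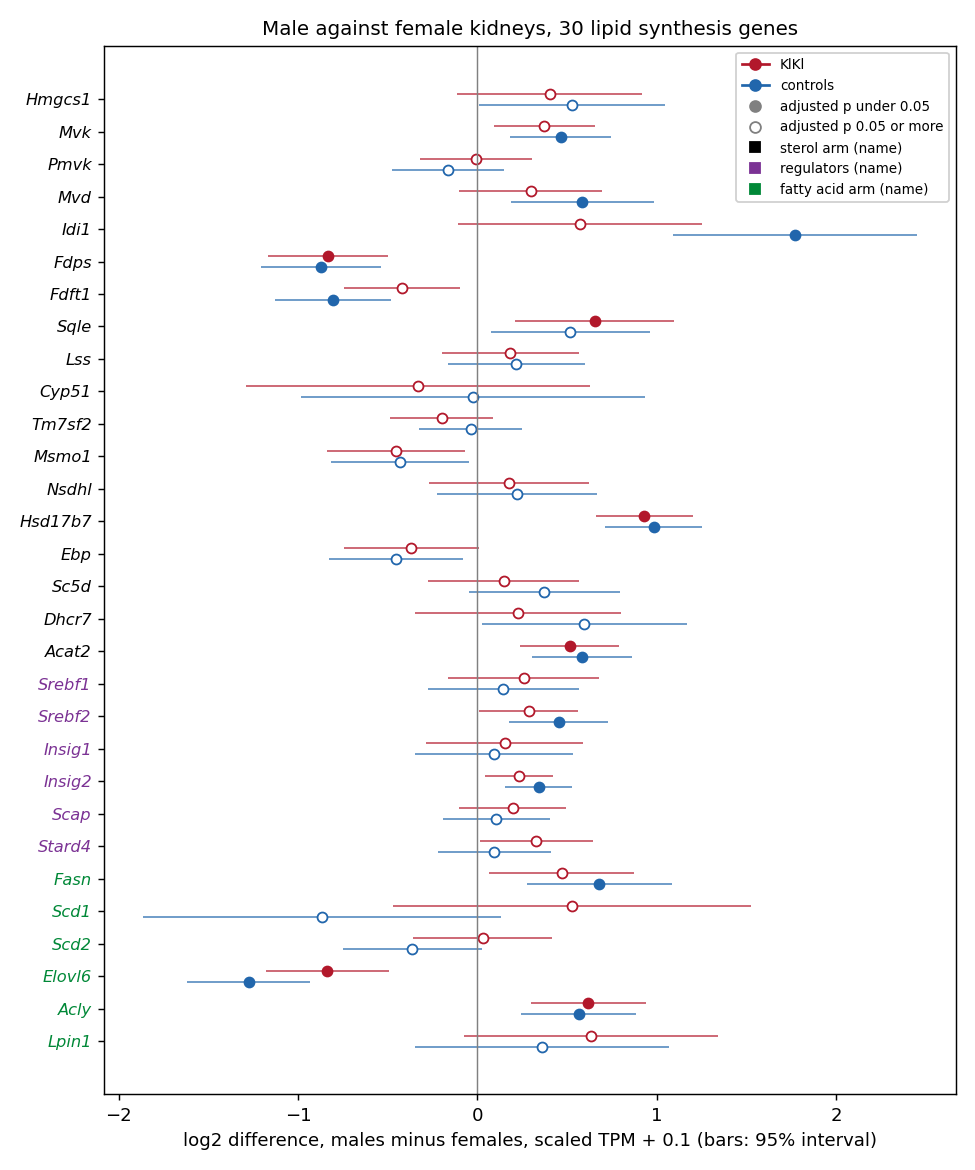
Log2 difference of males minus females for the 30 tested members, in KlKl and in control kidneys, with 95% intervals from limma and filled points where the adjusted p is under 0.05. Hsd17b7, Acat2 and Acly lie right of 0 and Fdps and Elovl6 left of it in both genotypes, and Idi1 lies farthest right in controls, at 1.77.

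Of the fatty acid members, Elovl6 differed most between the sexes. On build mm39 it spans bases 129326004 to 129432145 of chromosome 3, plus strand, and it overlaps the gene models Gm35986 and Gm43072, 1 of them on the same strand. It was 0.140, 0.139, 0.142 and 0.202 in male control 1 to 4, against 0.446, 0.514, 0.664 and 0.462 in female control 1 to 4. In KlKl kidneys it was 0.147, 0.191, 0.253 and 0.194 in males 1 to 4, against 0.503, 0.540, 0.313 and 0.377 in females 1 to 4. No male reached the lowest female of either genotype. It was lower in males by a log2 difference of -1.27 in controls (SE 0.16, adjusted p = 0.000107) and -0.84 in KlKl (SE 0.16, adjusted p = 0.00303).

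Acly was 1.65 to 1.78 in male control kidneys and 0.875 to 1.51 in female control kidneys, and 1.33 to 1.75 in male KlKl kidneys and 0.816 to 1.12 in female KlKl kidneys. It was higher in males by 0.56 in controls (SE 0.15, adjusted p = 0.0103) and 0.62 in KlKl (SE 0.15, adjusted p = 0.0106). Fasn was 2.75 to 3.28 in male control and 1.32 to 2.24 in female control kidneys and was higher in males by 0.68 (SE 0.19, adjusted p = 0.0131). In KlKl its value of 0.47 did not pass (adjusted p = 0.087), but it did without male KlKl 3 or female control 3. Of these, female control 3 is outside that comparison and bears only on its SE and adjusted p. Acaca, which carboxylates the acetyl-CoA that Acly makes, was higher in control males by 0.40 on reads (limma voom, SE 0.13, adjusted p = 0.0213), with 0.17 in KlKl (adjusted p = 0.352). Acly, Acaca and Fasn, the consecutive steps to palmitate, were thus all higher in control males, while the elongase that follows was lower.

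Marker sums also differed between the sexes beside these values. The principal cell list (5 genes) was 61.8 to 107 in male control and 73.8 to 157 in female control kidneys, and 64.8 to 94.1 in male KlKl and 91.1 to 174 in female KlKl kidneys. The fibroblast list (7 genes) was 3.73 to 5.95 in male control and 8.14 to 11.1 in female control kidneys, and 4.10 to 7.56 in male KlKl and 8.97 to 9.90 in female KlKl kidneys. The tubule injury list separated the sexes without overlap, at 91.5 to 134 in male control and 273 to 320 in female control kidneys, and 141 to 226 in male KlKl and 310 to 381 in female KlKl kidneys. Spp1 made up most of it, at 67.3 to 108 in male control and 235 to 286 in female control kidneys. Clu, Vim and Krt18 also had higher means in females of both genotypes. Havcr1 leaned the other way, with overlap, averaging 0.081 in male control and 0.016 in female control kidneys. In KlKl kidneys Havcr1 averaged 0.170 in males and 0.050 in females. Lcn2, Krt8, Krt20 and Sox9 had higher means in females among controls, but in males among KlKl kidneys. In KlKl they averaged 1.67, 9.97, 0.150 and 0.229 in males, against 1.58, 8.46, 0.046 and 0.205 in females. No gene of these lists was at 0 reads throughout a group. Their part in the sex differences was not tested.

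Other genes of the 2 routes, listed by name, were read in the same fits. Of 13 other sterol synthesis and uptake genes, 21 other fatty acid and glycerolipid synthesis genes and 9 sterol efflux and LXR genes tested, 0 passed with genotype in males, in females or in their mean. Between control males and females 4 of 13, 11 of 21 and 3 of 9 were higher in males, and 0, 1 and 1 were lower, against 18.6% and 15.5% of all genes. In KlKl 4, 6 and 2 were higher, and 0, 1 and 0 were lower, against 12.4% and 10.2% of all genes. Acss2, which makes acetyl-CoA from acetate, averaged 3.48 ± 0.35 in male control and 1.35 ± 0.30 in female control kidneys (SD, n = 4 each), a log2 difference of 1.32 (adjusted p = 6.2e-05), and the difference in KlKl was 0.89 (adjusted p = 0.00147). Acat1, the mitochondrial thiolase, was higher in males by 1.27 in controls and 0.92 in KlKl. Elovl2, an elongase of polyunsaturated fatty acids, was lower in males by a difference of -0.77 in controls and -0.60 in KlKl.

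Idi1 has a processed pseudogene, Idi1-ps1, at bases 53586133 to 53586817 of chromosome 2 (mm39, minus strand), which was looked at after the values of Idi1 were seen. It was 9.36, 4.52, 1.78 and 6.04 scaled TPM in male KlKl 1 to 4 and 8.69, 22.2, 18.3 and 10.1 in male control 1 to 4. In females it was 0.098 to 0.433 in KlKl and 0.106 to 0.598 in control kidneys, from 1 to 7 reads a library. It was higher in males by 4.90 on the log2 scale in controls (adjusted p = 3.94e-05) and 3.83 in KlKl (adjusted p = 0.000415). The KlKl difference in males was -1.55 and did not pass (adjusted p = 0.899). For every 100 reads given to Idi1, the pseudogene had 6.87 to 10.1 in male KlKl and 6.16 to 11.96 in male control kidneys, and 0.236 to 1.48 in female KlKl and 0.283 to 1.71 in female control kidneys. The processed pseudogenes Idi1-ps2 and Idi1-ps5 and the relative Idi2 held few reads. Idi1-ps2 had 0 to 7 reads a library in male KlKl, 1 to 6 in male control and 0 to 2 in each female group. Idi1-ps5 had 0 to 1 in male KlKl and 0 to 2 in male control, but 2 to 5 in female KlKl and 1 to 4 in female control kidneys. Idi2 had at most 2. How the counting divided reads between Idi1 and its near-identical copies is not given in the sources used here, so the values of Idi1 and Idi1-ps1 are uncertain.

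**Figure D5:**
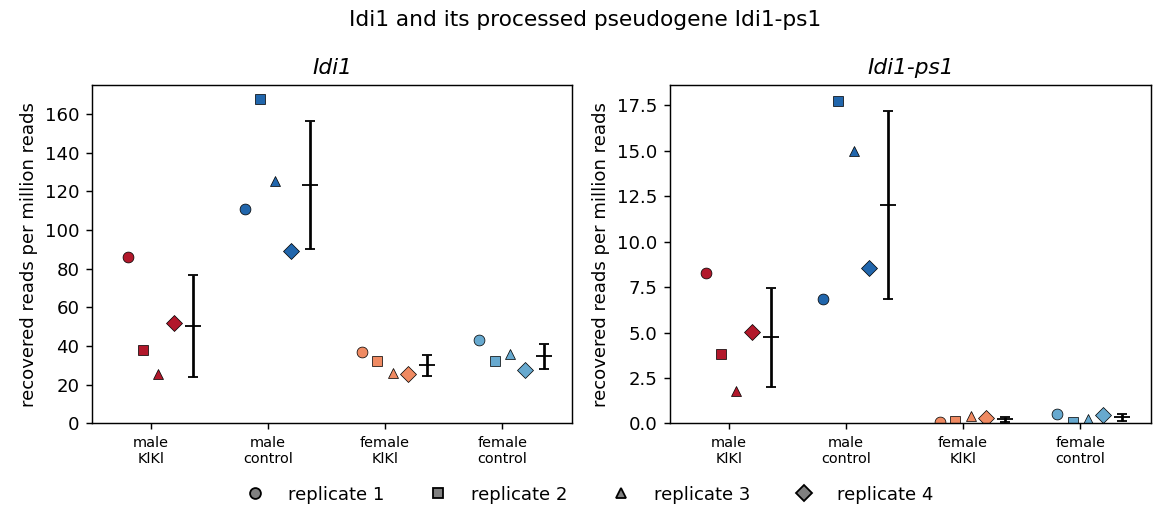
Recovered reads, scaled to library depth (RPM), of Idi1 (left) and Idi1-ps1 (right) in each library by group, with group mean and SD. Pseudogene reads are seen in males of both genotypes and are 1 to 7 a library in females.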

How the data were processed

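Polyadenylated RNA of 16 kidneys, 1 library per animal, was sequenced. The authors deposited TPM per gene, made with Partek on build mm39 per the submitters' processing notes. From the values, this TPM is reads plus 0.0001 divided by the whole gene span, introns included, and sums to the same total in every library. Reads recovered from it were whole within 0.1 for 81.2% of values under 20 reads. Of 30278 rows, 1 repeated entry with identical values was dropped. Because mitochondrial genes and pseudogenes took much of the fixed total, libraries were scaled by the median ratio over 12152 genes at 0.1 TPM or more in all 16.

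The main test was limma 3.58.1 (R 4.3.3) with a mean-variance trend on log2(scaled TPM + 0.1). It took genes at 0.1 TPM or more in at least 4 libraries (18273), with 4 group means, 12 residual degrees of freedom and Benjamini-Hochberg adjustment over all genes tested, at 0.05. Every adjusted p is from limma on this scale unless voom is named. Log2 differences are on the log2(value + 0.1) scale and understate changes of low genes. The alternative on counts was limma voom on recovered reads, with at least 10 reads in at least 4 libraries (17435 genes). Other alternatives changed the pseudocount, filter, scaling, weights and libraries. Statistics were tested on simulated data.

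The members and gene lists were chosen with earlier results of these data known. Members were named with statistics where they passed or had an unadjusted p under 0.05 in a comparison, or were among the 3 with the largest difference in it, and others are given by levels or ranges. A member named in 1 comparison was also given in the matching one of the other sex or genotype, and Acaca by voom. Libraries sharing a replicate number did not deviate together (correlations -0.120 to 0.169 over 24 pairs, 1 over 0.1), so the number was not used as a block. Libraries 1 and 2 of each group carry the name series CFK, and 3 and 4 CFdk. P-values measure the spread between animals. Depth was 8207664 to 20102503 recovered reads, and low genes of the shallow libraries are the least precise. Tables and figures were made with Python 3.11.15, numpy 2.4.6, pandas 2.3.3 and matplotlib 3.10.9. Exon lengths came from GENCODE M21.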

Additional observations from a re-analysis of the deposited data

Results flagged for a closer look

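Of 124 sets of 4 libraries (a member in a group), 8 held 1 library far from the other 3, with a gap over 0.829 of the group's range, and chance gives about 1 in 20. In 5 of them the library was male KlKl 3. Its scaled TPM was 9.45 for Hmgcs1 (24.1 to 25.7 in the other KlKl males), 2.09 for Cyp51 (8.03 to 10.3), 0.553 for Nsdhl (0.738 to 0.763) and 1.40 for Sc5d (2.33 to 2.56), all low, and 0.988 for Pmvk (0.537 to 0.568), which was high. Male KlKl 1 was high for Scd2, at 5.83 (4.88 to 5.02 in the others). Male control 4 was high for Elovl6, at 0.202 (0.139 to 0.142). Female control 1 was high for Mvk, at 0.469 (0.282 to 0.307).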

How the results depend on the processing

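Over 33 alternatives, 0 members were called with genotype in males or females, also with any 1 library left out, and the median over members stayed between -0.205 and -0.097 in males and between -0.171 and -0.081 in females with 1 library left out. On the nuclear scale that female median turned to 0.046, and on the deposited scale the male one to 0.126. The members called between control males and females numbered 12 (34.1% of all genes passed), and 7 within series CFK (15.4%), 3 within series CFdk (13.2%), 5 with heterozygous controls alone (16.7%), 20 with library weights (57%) and 10 to 14 with 1 library left out (27.1% to 36.9%). Between KlKl males and females 6 were called (22.5%), and 18 on the deposited scale (39.6%), 15 with a pseudocount of 1, a 1 TPM filter and the deposited scale (54.7%), 10 within series CFK (23.3%), 0 within series CFdk (0.372%), 15 with library weights (39.7%), 15 without female control 3 and male KlKl 3 (34.9%), and 5 to 12 with 1 library left out (14.1% to 31.2%; 12 without either of them alone). The mean KlKl difference of Acat2 turned to 0.01 on the deposited scale, alone and with that pseudocount and filter. The cause of these changes was not tested. Leaving out female control 3 alone kept the KlKl sex differences and changed only their SE and adjusted p. With the replicate number as a block, which the correlations did not bear out as a pairing, 0 members were called with genotype, 12 between control males and females and 5 between KlKl males and females. Depth limits the low members, and the shallowest library, female control 3, held 8207664 reads.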
